A study of Mus musculus with 9 samples.

Results

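The comparison described here is that of 24 h against 12 h of NRG1 treatment in MyC-CaP cells, and it asks what the later hours of exposure to this ligand added to the transcriptome, or took from it. MyC-CaP is an established mouse prostate cancer line, derived from a tumor of a mouse that carries a MYC transgene under a prostate-directed promoter. All libraries were from this line, held in medium without serum and calcium before recombinant mouse NRG1 was given at 15 ng/mL, and RNA was sequenced at 0 h (no NRG1 exposure), 12 h and 24 h. Members were chosen by their labelled time alone, which gave 6 of the 9 libraries, 3 at 12 h and 3 at 24 h. The 0 h libraries shared the fit and are given as the starting level. Untreated libraries at 12 h or 24 h were not analysed here, so longer exposure to NRG1 and longer time in the starvation medium cannot be told apart. The labels call the replicates biological, but the cells were plated in triplicate wells, so p-values may measure only the spread between wells of 1 culture.

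NRG1 binds the receptor HER3, which has little kinase activity of its own and signals by pairing with HER2. The pair drives the PI3K/AKT and MAPK/ERK pathways. ERK signaling switches on the immediate early genes within minutes, a wave that normally subsides as feedback inhibitors accumulate, whereas cell cycle genes follow hours later. The interferon-stimulated genes form a separate program, in which a complex that includes STAT2 and IRF9 binds a short promoter motif, the interferon-stimulated response element. The hypoxia-inducible factor (HIF) drives a further program of glucose uptake, glycolysis and pH control, and growth factor signaling can raise HIF without low oxygen.

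Total counts ran from 30920755 to 36177889 in the 12 h libraries and from 30299344 to 39239760 in those of 24 h, so depth did not separate the groups. The 3 libraries at 24 h were about equally alike, with chi-square values of 3.75 to 4.62 per degree of freedom for each pair, whereas at 12 h replicate 3 stood apart, with 9.92 and 10.1 against replicates 1 and 2, which gave 4.26 against each other. In a principal component analysis of the 6 libraries, the first component (29.9% of the variance) separated 12 h from 24 h, and the second (23.1%) set 12 h replicate 3 at -16.0 against 7.53 and 9.21 for its replicates. For many lists and genes that rest on this library, results are given with and without it. Mitochondrial genes took 1.12% to 1.18% of the counts at 12 h and 1.21% to 1.36% at 24 h, and their part in the results was not tested. As for the labelled cell type, the luminal genes Foxa1 and Hoxb13 were high, with mean levels at 12 h and 24 h of 285 and 291 counts per 1000000 counts (CPM) for Foxa1 and 102 and 90.2 for Hoxb13, but the epithelial genes Epcam and Cdh1 had at most 3 and 4 counts in any library and Krt18 at most 17. Of markers of other cells, the summed leukocyte level was 0.740 to 0.913 CPM at 12 h and 0.458 to 1.14 at 24 h, with Ptprc at most 8 counts and Cd3e at most 2. The endothelial sum was 0 to 0.112 and 0.295 to 0.359, the fibroblast sum 15.3 to 18 and 15.7 to 17.9, nearly all from Pdgfra, and the basal sum 238 to 274 and 151 to 179, nearly all from Krt15.

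The later interval moved few genes far. Of 11373 genes tested, 33 (0.29%) were called, meaning that the adjusted p was at most 0.05 and the fold change at least 1.5. Of these 33, 23 were higher at 24 h (0.202% of genes tested) and 10 were lower (0.0879%). Without the fold threshold, 572 genes (5.03%) passed the adjusted p, 224 higher (1.97%) and 348 lower (3.06%). Below, "rose" and "fell" are used of genes that passed the adjusted p, which is the Benjamini-Hochberg value of edgeR's quasi-likelihood test over all genes. The changes were small: the median size among these 572 genes was 0.22 on the log2 scale, 453 of them (79.2%) changed by less than 1.25-fold, and log2 fold changes ran from -1.12 to 1.94. When edgeR tested whether the fold change itself exceeded 1.5, no gene passed, and 46 had an unadjusted p under 0.05, so the 1.5-fold threshold holds for the estimates only. With counts scaled by library totals in place of TMM, 279 genes rose and 265 fell, so the excess of falling genes depends on the scaling. The 3 libraries of 12 h and the 3 of 24 h did not overlap in 2838 genes, or 25.0%. Without 12 h replicate 3, 36 genes were called and 879 passed the adjusted p, and 25 of the 33 calls were kept. The number past the adjusted p was 214 without 12 h replicate 1, and 217, 220 and 263 without 24 h replicates 1, 2 and 3 in turn. The number of calls was 16 without 24 h replicate 1.

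**Figure D1:**
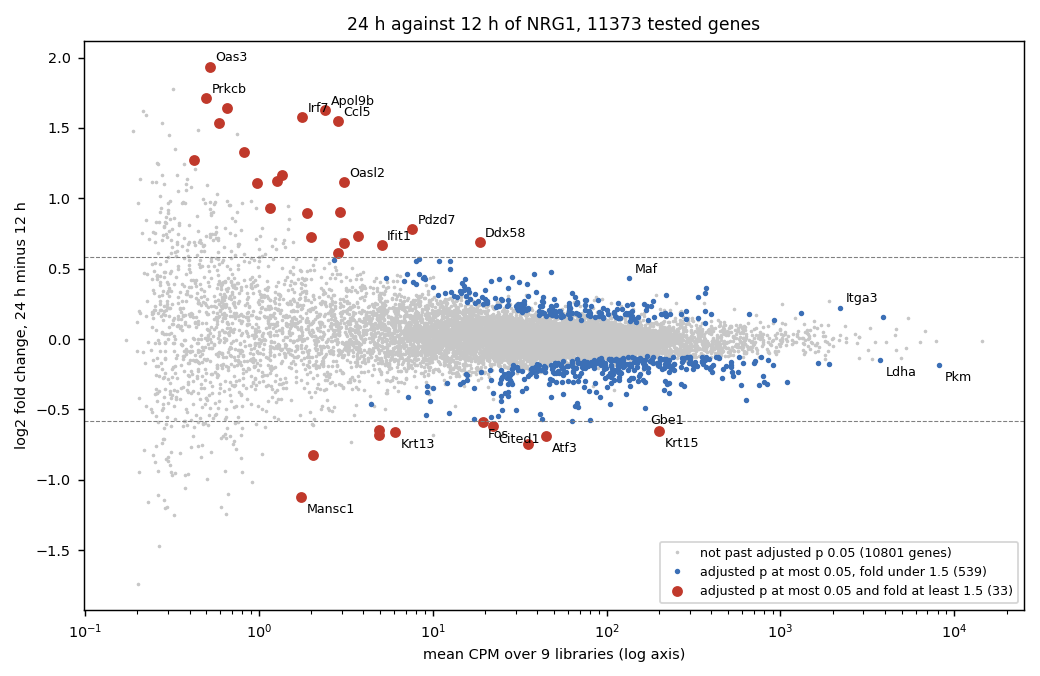
Log2 fold change of 24 h minus 12 h (vertical axis) against mean CPM over the 9 libraries (log axis) for 11373 tested genes, with dashed lines at a 1.5-fold change. The 33 called genes are red and the 539 that passed the adjusted p with a smaller change are blue. The called genes above the line lie mostly at low CPM, while Krt15 and Atf3 are called below it at higher levels.

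Interferon-stimulated genes had the highest median change of the 32 gene lists described here. Of 54 tested, 17 rose and 0 fell, which is 31.5% against 5.03% of all genes, and 9 of the 23 genes called higher came from this list. The median log2 fold change was 0.35 against 0.0023 over all genes, with members from -1.02 to 1.94. At 49 of the 54 the estimate was higher at 24 h, and at 34 the libraries of the 2 times did not overlap, as was the case for 25.0% of all tested genes. The median of the same members was -0.20 at 12 h against 0 h and 0.19 at 24 h against 0 h. These values share libraries with the main comparison and are no independent evidence, but they place the 12 h libraries as the low point. Without 12 h replicate 3 the median was 0.33 and 20 members rose. The number that rose was 10 without 12 h replicate 1, 11 without 12 h replicate 2 and 10 without 24 h replicate 2. In bulk RNA, more cells with a program and more RNA per cell cannot be told apart, here and below.

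Promoter windows of the called interferon-stimulated genes that hold the element are shown, because they carry the sequence that defines this program. The core searched was GAAANNGAA on both strands, in RefSeq windows of 300 bases (GRCm38.p6) from 250 before to 50 after the gene start. Windows were found for all 9 called members, and 6 of them held the core. Among all tested genes with a window, 761 of 9089 (8.37%) held it, among tested interferon-stimulated genes 24 of 43 (55.8%), and among those that rose 10 of 15 (66.7%). The match describes the letters only, and Irf7, Oasl2 and Xaf1 had no match in their windows. Each sequence is written 5′ to 3′ on the strand of the gene, with the core in capitals, or its reverse complement where it lies on the other strand. Ddx58 is at chr4:40239776-40240075 (minus strand), Apol9b at chr15:77728822-77729121 (plus), Ifit1 at chr19:34640639-34640938 (plus), Gbp7 at chr3:142530086-142530385 (plus) and Oas3 at chr5:120777610-120777909 (minus).
Ddx58: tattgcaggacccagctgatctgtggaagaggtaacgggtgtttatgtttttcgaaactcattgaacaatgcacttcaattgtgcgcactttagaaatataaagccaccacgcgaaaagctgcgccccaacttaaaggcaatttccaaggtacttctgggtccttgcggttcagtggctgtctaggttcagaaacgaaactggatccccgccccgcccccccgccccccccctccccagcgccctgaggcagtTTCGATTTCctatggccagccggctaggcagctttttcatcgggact
Apol9b: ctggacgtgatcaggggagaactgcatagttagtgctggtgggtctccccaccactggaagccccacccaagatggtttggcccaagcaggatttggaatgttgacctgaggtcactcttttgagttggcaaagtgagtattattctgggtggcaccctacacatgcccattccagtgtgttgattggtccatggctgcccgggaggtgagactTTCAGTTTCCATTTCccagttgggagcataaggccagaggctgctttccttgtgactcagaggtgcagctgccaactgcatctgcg
Ifit1: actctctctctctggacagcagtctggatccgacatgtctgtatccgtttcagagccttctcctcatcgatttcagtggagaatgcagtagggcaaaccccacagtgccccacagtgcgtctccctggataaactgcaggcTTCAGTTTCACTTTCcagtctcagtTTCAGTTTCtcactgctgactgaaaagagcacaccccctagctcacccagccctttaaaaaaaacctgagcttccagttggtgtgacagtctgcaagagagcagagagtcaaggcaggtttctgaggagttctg
Gbp7: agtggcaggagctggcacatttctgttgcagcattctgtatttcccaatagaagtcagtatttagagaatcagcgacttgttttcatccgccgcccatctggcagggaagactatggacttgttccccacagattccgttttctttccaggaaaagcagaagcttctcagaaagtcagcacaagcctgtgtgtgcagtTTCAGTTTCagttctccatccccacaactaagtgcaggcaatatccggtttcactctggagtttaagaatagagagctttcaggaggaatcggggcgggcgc
Oas3: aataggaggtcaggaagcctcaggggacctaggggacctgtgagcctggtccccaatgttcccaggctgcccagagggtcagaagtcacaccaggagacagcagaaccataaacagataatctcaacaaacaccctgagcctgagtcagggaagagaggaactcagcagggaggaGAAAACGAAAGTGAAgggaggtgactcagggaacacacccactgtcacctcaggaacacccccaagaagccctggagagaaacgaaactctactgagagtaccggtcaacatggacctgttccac
Counting the gene start as 0, the core begins at 3 in Ddx58, at -36 and, overlapping it, -30 in Apol9b, at -109, -103 and -84 in Ifit1, at -52 in Gbp7 and at -75 and -69 in Oas3. The window of Apol9a, the sixth, shared a run of 278 identical bases with that of Apol9b. For both genes RefSeq holds a second start, from which the cores lie farther upstream, and its window is not shown.

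Ddx58 encodes RIG-I, a cytosolic sensor of viral RNA, and had the smallest p of the called genes. It was at 14.5, 13.9 and 13.7 CPM at 12 h and 21.2, 24.0 and 22.7 CPM at 24 h (log2 fold change 0.69 ± 0.072 (SE), adjusted p = 0.000151). The 24 h libraries were all above those of 12 h, and the 0 h level of 19.3 ± 1.45 CPM (SD, n = 3) lay between. Irf7, the transcription factor that amplifies interferon production, was under 1 CPM in every 12 h library and above 2 CPM in those of 24 h. It was at 0.922, 0.933 and 0.979 CPM at 12 h and 3.21, 2.84 and 2.45 CPM at 24 h (log2 fold change 1.57 ± 0.21 (SE), adjusted p = 0.000402), after 1.55 ± 0.331 CPM (SD, n = 3) at 0 h. Oasl2, of the 2′-5′-oligoadenylate synthetase family of antiviral enzymes, was at 1.93, 1.80 and 2.19 CPM at 12 h and 4.0, 4.70 and 4.10 CPM at 24 h (log2 fold change 1.11 ± 0.15 (SE), adjusted p = 0.000441). The related Oas3, which makes the activator of RNase L, had the highest fold change of all called genes but under 1 CPM in every library (log2 fold change 1.94 ± 0.44 (SE), adjusted p = 0.017). Ifit1, which binds viral RNA that lacks cap methylation, was at 3.74, 3.92 and 4.18 CPM at 12 h and 5.90, 6.40 and 6.44 CPM at 24 h (log2 fold change 0.67 ± 0.12 (SE), adjusted p = 0.00459). Gbp7, an interferon-induced GTPase that shares 11.3% of its exonic bases with a same-strand gene, was at 2.49, 2.99 and 2.58 CPM at 12 h and 4.06, 5.26 and 4.02 CPM at 24 h (log2 fold change 0.73 ± 0.15 (SE), adjusted p = 0.00978). Libraries of the 2 times did not overlap for any of these genes.

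Apol9a and Apol9b, a pair of near-identical interferon-induced genes that can share reads, are best read together. Apol9b was at 0.866, 1.25 and 1.73 CPM at 12 h and 3.83, 4.58 and 3.39 CPM at 24 h (log2 fold change 1.63 ± 0.21 (SE), adjusted p = 0.00029), and Apol9a, at a mean under 1 CPM over the 9 libraries, was also higher (log2 fold change 1.64 ± 0.37 (SE), adjusted p = 0.0167). Xaf1, a pro-apoptotic antagonist of the inhibitor XIAP, was also called (log2 fold change 1.33 ± 0.35 (SE), adjusted p = 0.0358). The calls of Ddx58, Apol9b, Irf7, Oasl2 and Ifit1 were kept with each of the 6 libraries left out in turn. Gbp7 lost its call without 12 h replicate 1 (log2 fold change 0.67) or 24 h replicate 2 (0.59), on the adjusted p (0.0529 to 0.0610). Apol9a lost its call without 12 h replicate 2, 24 h replicate 1 or 24 h replicate 3 (adjusted p 0.0608 to 0.0835). Oas3 and Xaf1 lost theirs without 12 h replicate 1, 12 h replicate 2, 24 h replicate 1 or 24 h replicate 2, with adjusted p from 0.0592 to 0.0931 for Oas3 and from 0.0674 to 0.201 for Xaf1. The direction was kept in each of these fits.

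**Figure D2:**
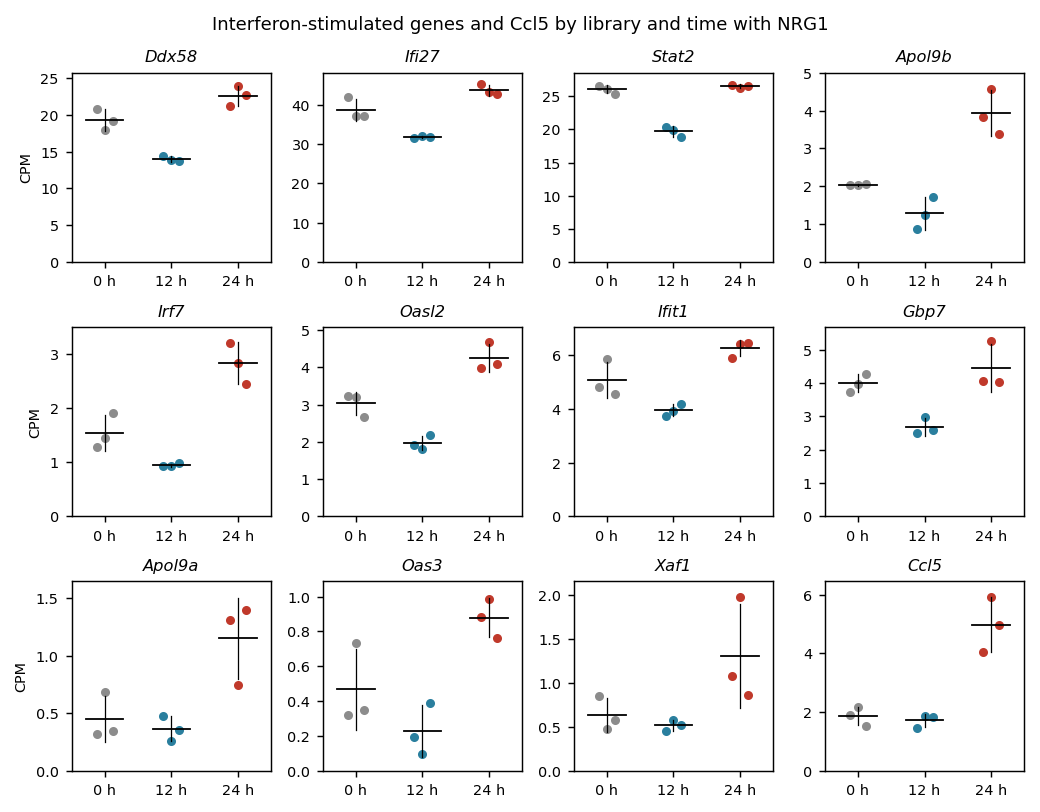
CPM by library (points, y axis from 0) at 0, 12 and 24 h for 11 interferon-stimulated genes and Ccl5, with horizontal lines at group means and vertical lines of 1 SD (n = 3 libraries). In every panel the 24 h points lie above the 12 h points, and the 12 h mean lies below that of 0 h.

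Of the members above 10 CPM, 2 that rose by less than 1.5-fold are described here. Stat2, part of the factor that binds the element, was at 20.4, 19.9 and 18.8 CPM at 12 h and 26.7, 26.2 and 26.6 CPM at 24 h (log2 fold change 0.43 ± 0.056 (SE), adjusted p = 0.000359), after 26.0 ± 0.608 CPM (SD, n = 3) at 0 h. Ifi27, a mitochondrial interferon-induced protein, was at 31.5, 31.9 and 31.8 CPM at 12 h and 45.1, 43.1 and 42.6 CPM at 24 h (log2 fold change 0.46 ± 0.055 (SE), adjusted p = 0.000199). Both were below the 1.5-fold threshold, with no overlap between times. Of 20 tested receptors, sensors and kinases upstream of this program, 2 rose and 0 fell (10% against 5.03% of all genes), with a median of 0.081. Those that rose were the receptor-associated kinases Jak2, at 198, 207 and 198 CPM at 12 h and 227, 229.8 and 228 CPM at 24 h (log2 fold change 0.18 ± 0.035 (SE), adjusted p = 0.00618), and Tyk2 (log2 fold change 0.19 ± 0.038 (SE), adjusted p = 0.00934). Tyk2 just missed the adjusted p without 24 h replicate 2. Of 20 tested MHC class I antigen presentation genes, another interferon-responsive group, 0 passed the adjusted p in edgeR, DESeq2 or limma-voom and 2 had an unadjusted p under 0.05 in edgeR, with a median of 0.021. Over all genes, 2290 of 11373 had an unadjusted p under 0.05 in that test. The interferon genes Ifnb1, Ifnl2 and Ifnl3 were listed with the receptors, sensors and kinases, of which 22 of 25 were in the counts, and are not reported singly here.

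Of 28 chemokine and NF-kB genes tested, 3 rose and 3 fell (21.4% against 5.03% of all genes), with a median of 0.016. Ccl5, a chemokine that draws T cells and is induced by both interferon and NF-kB signaling, was called higher, at 1.45, 1.87 and 1.83 CPM at 12 h and 4.06, 5.92 and 4.97 CPM at 24 h (log2 fold change 1.55 ± 0.18 (SE), adjusted p = 0.000182). Its 12 h level was close to that of 0 h, 1.87 ± 0.311 CPM (SD, n = 3), and all 3 libraries of 24 h were above 4 CPM. Csf1, the macrophage growth factor, was at 12.3, 14.3 and 13.2 CPM at 12 h and 18, 15.8 and 17.8 CPM at 24 h (log2 fold change 0.38 ± 0.085 (SE), adjusted p = 0.0167). Cxcl1, a neutrophil chemokine, fell from 12 h to 24 h, at 24.1, 20.3 and 30.3 CPM at 12 h and 15.7, 18.5 and 16.3 CPM at 24 h (log2 fold change -0.57 ± 0.12 (SE), adjusted p = 0.0101), and was still above its 0 h level of 9.99 ± 1.08 CPM (SD, n = 3). Nfkbiz, an inducible co-regulator of NF-kB, was at 33.5, 27.2 and 30.6 CPM at 12 h and 24.5, 24.6 and 24.2 CPM at 24 h (log2 fold change -0.32 ± 0.068 (SE), adjusted p = 0.0128). Without 12 h replicate 3, which held the highest Cxcl1 value, the log2 fold change of Cxcl1 was -0.41, 5 members rose and 2 fell. Without 24 h replicate 1 or 24 h replicate 3, 1 member rose and 0 fell in edgeR, the adjusted p of Cxcl1 being 0.0592 and 0.0581. Without 12 h replicate 1, 1 rose and 1 fell. Csf1 and Nfkbiz missed the adjusted p in all 3 of these last fits.

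Glycolysis and hypoxia genes had the highest share of falling members among the 32 lists. Of 35 tested, 16 fell and 0 rose, or 45.7% against 5.03% of all genes, with a median log2 fold change of -0.14. The estimate was lower at 24 h for 34 of the 35, and libraries did not overlap for 24, against 25.0% of all tested genes. These 35 were counted by gene identifier and carried 34 different symbols. The median was 0.17 at 12 h against 0 h and 0.019 at 24 h against 0 h, comparisons that share libraries with this one, so the 12 h libraries held the high point. Without 12 h replicate 3, 17 fell. The number that fell was 9 without 12 h replicate 1, 7 without 24 h replicate 1, 10 without 24 h replicate 2 and 7 without 24 h replicate 3, while the median stayed between -0.15 and -0.13. The HIF core ACGTG or GCGTG, searched on both strands, was in the windows of 30 of 32 of these genes with one (93.8%), against 6262 of 9089 tested genes (68.9%). It was in 228 of 273 genes that fell (83.5%) and 111 of 177 that rose (62.7%). In the other lists searched, it was in 82.6% of immediate early, 69.0% of mitosis and 37.2% of interferon-stimulated genes. A gene counted if any of its windows held the core, and some genes had more than 1 window. Counted by window, the shares were 78.0% for this list and 62.7% for all tested genes. Genes that fell stood at 75.8% and those that rose at 56.7%. Immediate early genes stood at 65.5%, mitosis genes at 69.8% and interferon-stimulated genes at 34.6%. The match describes the letters only, and a role of HIF was not tested.

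Within this group, Adm, the vasodilator peptide adrenomedullin, was called, at 7.60, 5.85 and 6.75 CPM at 12 h and 3.64, 4.46 and 4.76 CPM at 24 h (log2 fold change -0.65 ± 0.13 (SE), adjusted p = 0.0109). It was not called without 12 h replicate 1 (-0.55) or 24 h replicate 1 (-0.54). Higd1a, a mitochondrial protein induced by low oxygen with 22.5% of its exonic bases overlapped on the opposite strand, was at 169, 158 and 168 CPM at 12 h and 130.1, 129.7 and 133 CPM at 24 h (log2 fold change -0.33 ± 0.037 (SE), adjusted p = 0.000165). It kept part of its rise over the 0 h level of 113 ± 1.78 CPM (SD, n = 3). Aldoc, an aldolase of glycolysis, was at 246, 235 and 244 CPM at 12 h and 182, 194 and 189 CPM at 24 h (log2 fold change -0.36 ± 0.043 (SE), adjusted p = 0.0002), and was then below its 0 h level of 210.1 ± 12.2 CPM (SD, n = 3). Ankrd37, a HIF target of unclear function whose exons overlap other genes on the opposite strand over 26.4% of their bases, was at 30.3, 28.6 and 30.6 CPM at 12 h and 21.5, 21.2 and 20.6 CPM at 24 h (log2 fold change -0.50 ± 0.061 (SE), adjusted p = 0.000222). Pfkp, a phosphofructokinase at the committed step of glycolysis, was at 609, 566 and 626 CPM at 12 h and 493, 514 and 496 CPM at 24 h (log2 fold change -0.26 ± 0.044 (SE), adjusted p = 0.0028). The highly expressed enzymes fell by less: Ldha, lactate dehydrogenase, was at 4088, 3988 and 3938 CPM at 12 h and 3621, 3605 and 3604 CPM at 24 h (log2 fold change -0.15 ± 0.032 (SE), adjusted p = 0.0124). Pkm, pyruvate kinase, with 15.3% of its exonic bases shared with a same-strand gene, was at 9144, 8392 and 8492 CPM at 12 h and 7639.8, 7639.9 and 7627 CPM at 24 h (log2 fold change -0.18 ± 0.039 (SE), adjusted p = 0.012). Tpi1, triosephosphate isomerase, had log2 fold change -0.18 ± 0.034 (SE), adjusted p = 0.00636. In all of these genes every 24 h library was below every 12 h library. Pkm and Ldha no longer passed without any 1 of the 24 h libraries (adjusted p 0.0677 to 0.0754), and Tpi1 did not without 24 h replicate 3 (0.0508).

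Gbe1 and Hilpda, which are not in the list, were among the 15 genes with the smallest p. Gbe1, the glycogen branching enzyme, had the second smallest p of all genes. It was at 209, 193 and 226 CPM at 12 h and 147, 149 and 152 CPM at 24 h (log2 fold change -0.49 ± 0.047 (SE), adjusted p = 7.57e-05) after 139 ± 3.49 CPM (SD, n = 3) at 0 h, so the 24 h level was near the start. Hilpda, a hypoxia-induced lipid droplet protein, followed the same course, at 57.8, 55.7 and 58.0 CPM at 12 h and 44.4, 42.8 and 41.9 CPM at 24 h (log2 fold change -0.41 ± 0.045 (SE), adjusted p = 0.000165) after 44.4 ± 1.43 CPM (SD, n = 3). Ero1l, a member of the list and an oxidase of disulfide formation in the endoplasmic reticulum that HIF induces, was at 1283, 1166 and 1471 CPM at 12 h and 1013, 1107 and 1061 CPM at 24 h (log2 fold change -0.30 ± 0.072 (SE), adjusted p = 0.0229). Its highest value was that of 12 h replicate 3, and without that library the log2 fold change was -0.21. It missed the adjusted p without 12 h replicate 1, 24 h replicate 1 or 24 h replicate 3, and in DESeq2 (0.0735).

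Of 29 immediate early genes tested, 10 fell, 0 rose and 19 did not pass (34.5% against 5.03%), with a median of -0.17, and 2 were called. This median rested in part on 12 h replicate 3, without which it was -0.033, with 9 members falling and 2 rising. Without 24 h replicate 1 or without 24 h replicate 3, 5 fell. Fosl1, the AP-1 subunit FRA-1 that accumulates under sustained ERK activity, was at 38.0, 36.8 and 40.9 CPM at 12 h and 27.3, 27.4 and 26.7 CPM at 24 h (log2 fold change -0.50 ± 0.058 (SE), adjusted p = 0.000171), after 25.2 ± 1.52 CPM (SD, n = 3) at 0 h. Its exons overlap Ccdc85b on the opposite strand over 57.2% of their bases, so reads of the 2 genes may be mixed if strand was not used in counting. Ier3, a stress- and growth factor-induced regulator of survival, was at 102, 93.0 and 120.1 CPM at 12 h and 70.9, 71.1 and 69.5 CPM at 24 h (log2 fold change -0.57 ± 0.076 (SE), adjusted p = 0.000402), after 65.9 ± 6.47 CPM (SD, n = 3). Jund, another AP-1 subunit, was at 612, 618 and 633 CPM at 12 h and 533, 529 and 524 CPM at 24 h (log2 fold change -0.23 ± 0.034 (SE), adjusted p = 0.000849), still above its 432 ± 14.4 CPM (SD, n = 3) at 0 h, with 52.6% of its exonic bases in an opposite-strand overlap. Without 12 h replicate 3, the log2 fold change of Ier3 was -0.47. Fos, the classic AP-1 subunit, took another course. It was at 22.5, 19.1 and 25.1 CPM at 12 h and 14.3, 14.9 and 15.1 CPM at 24 h (log2 fold change -0.59 ± 0.086 (SE), adjusted p = 0.000829), so that 24 h was below the 0 h level of 21.1 ± 1.34 CPM (SD, n = 3). The call of Fos was marginal: without 12 h replicate 1, 12 h replicate 3 or 24 h replicate 1 the log2 fold change was -0.58, -0.50 and -0.56. Atf3, a stress-induced repressor, was at 50.5, 46.5 and 86.4 CPM at 12 h and 33.8, 43.7 and 36.1 CPM at 24 h (log2 fold change -0.69 ± 0.18 (SE), adjusted p = 0.0358). The highest value came from 12 h replicate 3, without which the log2 fold change was -0.36 and the call was lost. The call of Atf3 was also lost without any 1 of the 24 h libraries and in DESeq2 (adjusted p 0.162).

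The genes that act as ERK feedback, among them the dual-specificity phosphatases and Sprouty proteins, gave no call to set beside these. Of 16 tested, 0 passed the adjusted p in edgeR, DESeq2 or limma-voom and 3 had an unadjusted p under 0.05 in edgeR, with a median of 0.019. An unadjusted p under 0.05 in the same edgeR test was found for 2290 of all 11373 tested genes. Myc, listed with the immediate early genes, went the other way without passing, at 64.9, 54.5 and 71.5 CPM at 12 h and 74.8, 76.1 and 74.2 CPM at 24 h (log2 fold change 0.24 ± 0.069 (SE), adjusted p = 0.0596). It passed in 7 other fits, among them the one without 12 h replicate 3 (log2 fold change 0.32, adjusted p 0.00292) and DESeq2 (0.0225). The line carries a MYC transgene, and whether its transcripts were counted as Myc was not tested. Of the receptors, Egfr was at 22.9, 22.1 and 23.8 CPM at 12 h and 25.4, 27.5 and 25.8 CPM at 24 h (log2 fold change 0.20 ± 0.057 (SE), adjusted p = 0.0595), Erbb2, the gene of HER2, at 133, 133 and 122 CPM at 12 h and 151, 138 and 139 CPM at 24 h (log2 fold change 0.14 ± 0.046 (SE), adjusted p = 0.094), and Erbb3, the gene of HER3, at 78.3, 78.9 and 92.9 CPM at 12 h and 94.2, 90.8 and 89.1 CPM at 24 h (log2 fold change 0.13 ± 0.058 (SE), adjusted p = 0.214). None of the 3 passed here, and the libraries of Erbb3 overlapped between times. Of 19 alternatives each, Egfr passed in 3, among them the fit without 12 h replicate 3 (adjusted p 0.0417), Erbb3 in 1, that same fit (0.0105), and Erbb2 in 1, that with no filter (0.0308). Among 13 tested ErbB receptors, ligands and regulators, 1 fell (7.69% against 5.03% of all genes). That gene was Adam17, the protease that sheds ErbB ligands (log2 fold change -0.14 ± 0.036 (SE), adjusted p = 0.0314). Of the fits without a 12 h or 24 h library, Adam17 passed in only 1, that without 12 h replicate 3.

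**Figure D3:**
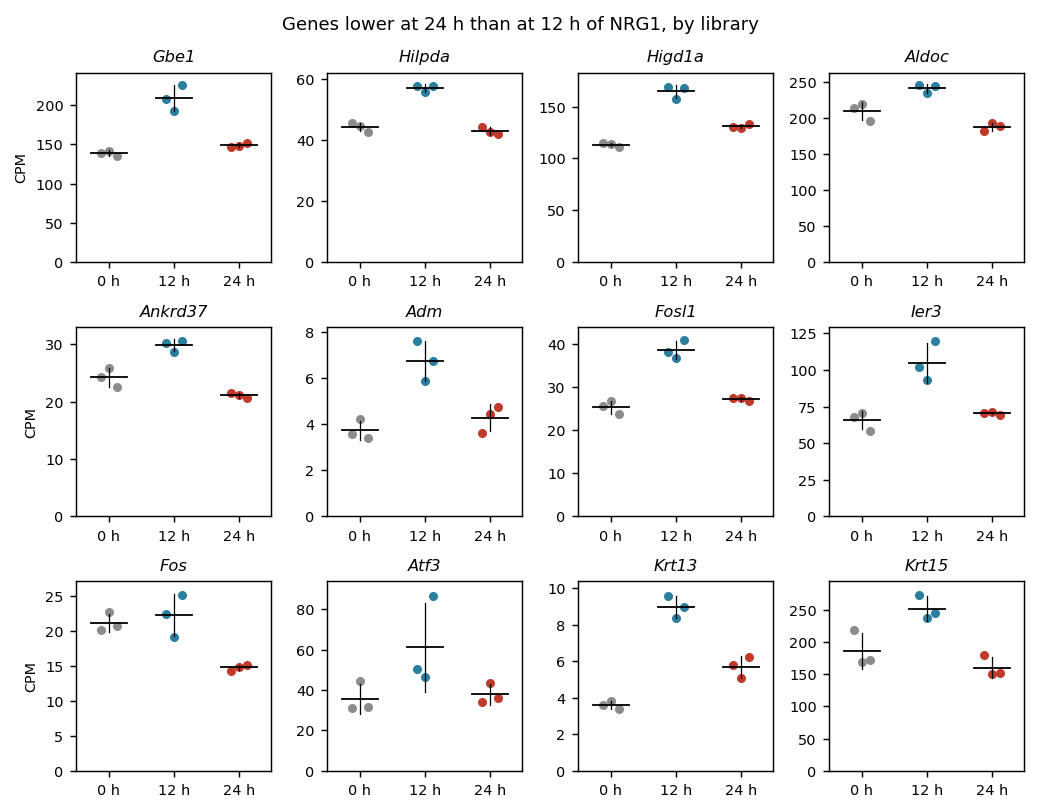
CPM by library (points, y axis from 0) at 0, 12 and 24 h for 12 genes that fell from 12 h to 24 h, with horizontal lines at group means and vertical lines of 1 SD (n = 3 libraries). The 12 h mean is the highest in each panel, the spread of Atf3 at 12 h is wide, and Fos, Aldoc, Ankrd37, Hilpda and Krt15 have 24 h means below those of 0 h.

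Krt15 and Krt13 were among the other genes called lower. Krt15, a keratin of basal and progenitor cells, was at 274, 238 and 245 CPM at 12 h and 179, 150.5 and 152 CPM at 24 h (log2 fold change -0.65 ± 0.085 (SE), adjusted p = 0.000329). Krt13, a keratin of stratified epithelia that do not cornify, was at 9.55, 8.36 and 8.97 CPM at 12 h and 5.76, 5.05 and 6.22 CPM at 24 h (log2 fold change -0.66 ± 0.11 (SE), adjusted p = 0.0019), and still above its 3.59 ± 0.223 CPM (SD, n = 3) at 0 h. Among 17 tested keratin and junction genes these and Pkp2, a desmosome plaque gene (log2 fold change -0.24 ± 0.058 (SE), adjusted p = 0.0227), fell and 0 rose. The share of that list past the adjusted p was 17.6% against 5.03% of all genes, and its median was 0.041. The defining basal genes Trp63 and Krt14 had at most 9 and 12 counts in a library. Krt13 was not called without 24 h replicate 2 (-0.58), and Pkp2 missed the adjusted p without 12 h replicate 1 or any 1 of the 24 h libraries.

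Cited1, a transcriptional co-activator that binds CBP and p300, was at 26.0, 26.0 and 26.2 CPM at 12 h and 17.5, 17.4 and 16.0 CPM at 24 h (log2 fold change -0.62 ± 0.069 (SE), adjusted p = 0.000165). Its 12 h libraries were close to 0 h, at 23.6 ± 2.09 CPM (SD, n = 3), so the drop was seen in the later interval. Cdc42ep2, an effector of the GTPase CDC42, had the same course, at 5.34, 6.05 and 5.84 CPM at 12 h and 3.21, 3.56 and 3.90 CPM at 24 h (log2 fold change -0.68 ± 0.14 (SE), adjusted p = 0.0119) after 5.45 ± 1.03 CPM (SD, n = 3). Mansc1, a membrane protein, had the lowest log2 fold change of all called genes, at 2.51, 1.83 and 3.13 CPM at 12 h and 1.18, 1.11 and 1.15 CPM at 24 h (log2 fold change -1.12 ± 0.22 (SE), adjusted p = 0.00693). Ropn1l, a protein of the sperm flagellum, was at 2.63, 2.93 and 2.48 CPM at 12 h and 1.21, 1.38 and 1.88 CPM at 24 h (log2 fold change -0.82 ± 0.20 (SE), adjusted p = 0.0257). The call of Mansc1 was kept with each library left out, that of Cited1 was lost without 24 h replicate 3 (-0.57), and that of Cdc42ep2 without 24 h replicate 1 (adjusted p 0.0609). The call of Ropn1l was lost without 12 h replicate 1, 12 h replicate 2, 24 h replicate 1 or 24 h replicate 2 (0.0766 to 0.103). Of 22 tested p53 target genes, 2 fell and 0 rose (9.09% against 5.03% of all genes). Cdkn1a, the cell cycle inhibitor p21, was at 82.8, 74.0 and 98.6 CPM at 12 h and 54.3, 57.7 and 58.4 CPM at 24 h (log2 fold change -0.58 ± 0.092 (SE), adjusted p = 0.00152), after 47.4 ± 6.52 CPM (SD, n = 3) at 0 h. Plk3, a stress-responsive polo-like kinase, was at 45.8, 46.8 and 80.1 CPM at 12 h and 36.3, 44.4 and 38.5 CPM at 24 h (log2 fold change -0.53 ± 0.15 (SE), adjusted p = 0.0494). Without 12 h replicate 3, the log2 fold change was -0.47 for Cdkn1a and -0.23 for Plk3. Plk3 missed the adjusted p in 11 of 19 alternatives, among them DESeq2 (0.190), limma-voom (0.0703) and the fits without any 1 of the 0 h or 24 h libraries. Without any 1 of the 24 h libraries, 1 p53 target fell.

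Of 69 tested mitosis genes, 8 rose, 0 fell and 61 did not pass (11.6% against 5.03%), with a median of 0.12, and the estimate was higher at 24 h for 64. None was called. Of 59 tested DNA replication and G1/S genes, 0 passed the adjusted p in edgeR, DESeq2 or limma-voom and 9 had an unadjusted p under 0.05 in edgeR, with a median of -0.025. Over all genes, 2290 of 11373 had an unadjusted p under 0.05 in edgeR. The difference between the lists was not tested. Both lists were already up at 12 h against 0 h, with medians of 0.44 for mitosis and 0.53 for replication, and at 24 h these were 0.57 and 0.50. The contrasts against 0 h share libraries with the main one. Knstrn, a spindle adaptor needed for chromosome alignment, was at 61.5, 66.0 and 63.8 CPM at 12 h and 73.3, 76.4 and 78.5 CPM at 24 h (log2 fold change 0.26 ± 0.048 (SE), adjusted p = 0.00523), with all libraries of 24 h above those of 12 h. Ect2, the exchange factor that starts cytokinesis, was at 90.5, 103 and 98.9 CPM at 12 h and 111, 115 and 114 CPM at 24 h (log2 fold change 0.22 ± 0.051 (SE), adjusted p = 0.0194). Cenpf, a kinetochore protein, was at 59.4, 62.2 and 73.1 CPM at 12 h and 75.3, 83.8 and 80.7 CPM at 24 h (log2 fold change 0.30 ± 0.073 (SE), adjusted p = 0.0249). Aspm, which organizes spindle poles, was at 32.4, 32.1 and 39.8 CPM at 12 h and 39.7, 44.6 and 44.4 CPM at 24 h (log2 fold change 0.31 ± 0.08 (SE), adjusted p = 0.0345), and its highest 12 h library overlapped the lowest of 24 h.

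The count of rising mitosis genes depended on single libraries. It was 1 without 12 h replicate 1, 24 h replicate 2 or 24 h replicate 3, 5 without 24 h replicate 1 and 13 without 12 h replicate 3, and the median stayed between 0.095 and 0.15. The CHR motif of mitosis genes, TTTGAA or TTCGAA on either strand, was in the windows of 44 of 58 mitosis genes (75.9%), of 6 of the 8 that rose (75.0%), and of 1504 of 9089 tested genes (16.5%).

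Outside these lists, Maf had the smallest p of all genes. It encodes c-MAF, a transcription factor of the AP-1 superfamily, and was at 121, 124 and 121 CPM at 12 h and 161, 166 and 167 CPM at 24 h (log2 fold change 0.43 ± 0.034 (SE), adjusted p = 7.49e-06). The 12 h libraries were close to the 0 h level of 119 ± 0.844 CPM (SD, n = 3) and all 3 of 24 h were above it. Gpnmb, a lysosomal and melanosomal glycoprotein, was at 317, 309.8 and 293 CPM at 12 h and 388, 383 and 385 CPM at 24 h (log2 fold change 0.33 ± 0.037 (SE), adjusted p = 0.000165), after 411 ± 11.4 CPM (SD, n = 3) at 0 h. Rassf4, a Ras-association domain protein, was at 190.1, 183 and 178 CPM at 12 h and 231, 229 and 227 CPM at 24 h (log2 fold change 0.32 ± 0.036 (SE), adjusted p = 0.000165). These last 2 had the reverse course of the hypoxia genes, with the low point at 12 h. Pdzd7, a scaffold of hair cell stereocilia, was called, at 4.80, 6.14 and 5.71 CPM at 12 h and 8.65, 9.66 and 10.1 CPM at 24 h (log2 fold change 0.78 ± 0.11 (SE), adjusted p = 0.000458). Fam57a, whose protein carries a TLC domain of lipid enzymes, fell, at 153, 144 and 159.7 CPM at 12 h and 117, 116 and 116 CPM at 24 h (log2 fold change -0.39 ± 0.045 (SE), adjusted p = 0.000171), with 43.5% of its exonic bases overlapped on the opposite strand. Hba-a1, an alpha-globin gene with a near-identical copy that can share its reads, fell, at 73.8, 75.9 and 65.5 CPM at 12 h and 52.7, 48.5 and 53.8 CPM at 24 h (log2 fold change -0.47 ± 0.056 (SE), adjusted p = 0.000199). All 6 of these genes passed with each library left out.

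**Figure D4:**
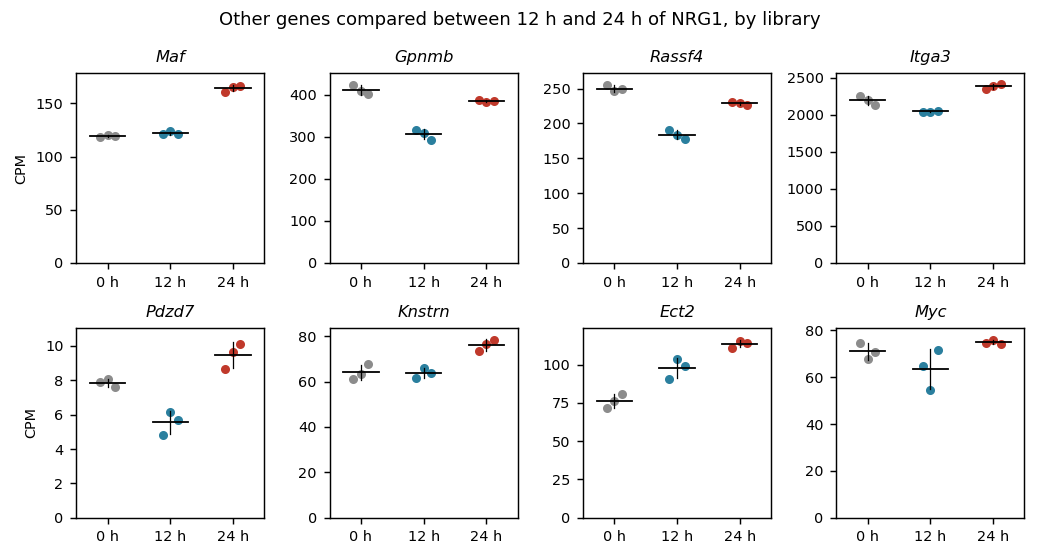
CPM by library (points, y axis from 0) at 0, 12 and 24 h for 8 genes with higher estimates at 24 h than at 12 h, with horizontal lines at group means and vertical lines of 1 SD (n = 3 libraries). Maf is flat from 0 h to 12 h and higher at 24 h, whereas Gpnmb, Rassf4, Itga3 and Pdzd7 have their lowest means at 12 h, and Myc, which did not pass the adjusted p, has its widest spread there.

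The remaining called rises were of low expression. Rdm1, a RAD52 motif protein of DNA repair, was at 1.79, 2.70 and 1.96 CPM at 12 h and 4.55, 3.65 and 3.85 CPM at 24 h (log2 fold change 0.90 ± 0.18 (SE), adjusted p = 0.00863). Hoxa6, a homeobox factor, was at 2.15, 2.41 and 1.86 CPM at 12 h and 3.47, 3.47 and 2.90 CPM at 24 h (log2 fold change 0.61 ± 0.15 (SE), adjusted p = 0.0314). Plpp3, a lipid phosphatase that degrades lysophosphatidic acid, was at 2.60, 2.22 and 1.73 CPM at 12 h and 4.45, 3.17 and 3.06 CPM at 24 h (log2 fold change 0.68 ± 0.18 (SE), adjusted p = 0.0389). In each of the 3 the libraries of the 2 times did not overlap. Tle2, a Groucho-family corepressor, was at 1.09, 0.868 and 1.14 CPM at 12 h and 2.29, 1.91 and 1.63 CPM at 24 h (log2 fold change 0.90 ± 0.21 (SE), adjusted p = 0.0225), below its 0 h level of 2.74 ± 0.306 CPM (SD, n = 3). Sspo, an extracellular matrix protein of the brain, was at 1.73, 1.61 and 1.5 CPM at 12 h and 2.59, 2.60 and 2.83 CPM at 24 h (log2 fold change 0.73 ± 0.17 (SE), adjusted p = 0.0232). Msh5, of meiotic recombination, was at 0.894, 0.611 and 0.783 CPM at 12 h and 1.54, 1.56 and 1.91 CPM at 24 h (log2 fold change 1.13 ± 0.24 (SE), adjusted p = 0.0124). Adgra2, an adhesion receptor of WNT7 signaling, was at 0.894, 1.09 and 0.62 CPM at 12 h and 1.87, 1.44 and 1.71 CPM at 24 h (log2 fold change 0.93 ± 0.25 (SE), adjusted p = 0.0401). Pla1a (1.11), a phospholipase, Prkcb (1.71), a protein kinase C, Nupr1l (1.53), a chromatin-associated stress protein, and Slc24a5 (1.27), an ion exchanger of melanosomes with 39.5% of its exonic bases overlapped on the opposite strand, had under 1 CPM on average over the 9 libraries and are given as log2 fold changes. The last of the 23, Gm10800, is a predicted gene and is not described.

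Each of these low-expression calls was lost without at least 1 library. Slc24a5 lost its call without any 1 of the 6 libraries. Adgra2, Sspo and Nupr1l lost theirs in 5 of the 6 such fits, the exceptions being those without 12 h replicate 2, 12 h replicate 3 and 12 h replicate 1 in turn. Pla1a, Tle2, Prkcb, Hoxa6 and Plpp3 lost theirs in 4 of the 6, with adjusted p up to 0.165. The fits in which they were kept were those without 12 h replicate 3 or 24 h replicate 2 for Pla1a, 12 h replicate 3 or 24 h replicate 3 for Tle2, 12 h replicate 2 or 12 h replicate 3 for Prkcb, 12 h replicate 2 or 24 h replicate 3 for Hoxa6, and 12 h replicate 1 or 24 h replicate 3 for Plpp3. Rdm1 lost its call without 12 h replicate 1 (adjusted p 0.0575) and Msh5 without 24 h replicate 3 (0.0635). Of the 32 called genes with a name, 10 kept the call in all 6 fits and 22 did not.

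Of 24 tested matrix and integrin genes, 3 rose and 1 fell (16.7% against 5.03% of all genes), with a median of 0.076. Itga3, the integrin subunit that pairs with beta1 to bind laminins, was one of the most abundant genes to rise, at 2034, 2039 and 2054 CPM at 12 h and 2348, 2382 and 2417 CPM at 24 h (log2 fold change 0.22 ± 0.032 (SE), adjusted p = 0.000781). Timp2, a metalloproteinase inhibitor, was at 239, 245 and 227 CPM at 12 h and 268, 263 and 273 CPM at 24 h (log2 fold change 0.18 ± 0.041 (SE), adjusted p = 0.0186). The laminin chains went opposite ways: Lama3 was at 35.7, 31.2 and 44.3 CPM at 12 h and 44.9, 47.9 and 46.9 CPM at 24 h (log2 fold change 0.33 ± 0.09 (SE), adjusted p = 0.0417) and Lamb1 at 11.5, 11.2 and 13.8 CPM at 12 h and 8.74, 9.09 and 8.97 CPM at 24 h (log2 fold change -0.44 ± 0.12 (SE), adjusted p = 0.0358). Without 12 h replicate 3, the log2 fold change was 0.47 for Lama3 and -0.35 for Lamb1, and 7 members of this list rose and 0 fell. Without any 1 of the 24 h libraries, or without 12 h replicate 1, 1 rose and 0 fell.

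Of 18 tested YAP target genes, 4 rose and 1 fell (27.8% against 5.03% of all genes), with a median of 0.076. Amotl2, a junction scaffold that restrains YAP, was at 99.2, 107 and 103 CPM at 12 h and 119, 126 and 125 CPM at 24 h (log2 fold change 0.26 ± 0.045 (SE), adjusted p = 0.00324). Edn1, the peptide endothelin-1, was at 33.5, 30.5 and 33.8 CPM at 12 h and 37.8, 41.8 and 38.3 CPM at 24 h (log2 fold change 0.27 ± 0.057 (SE), adjusted p = 0.0124), and Arhgef17, a guanine nucleotide exchange factor, at 36.3, 38.4 and 37.7 CPM at 12 h and 40.9, 46.4 and 44.7 CPM at 24 h (log2 fold change 0.23 ± 0.052 (SE), adjusted p = 0.0156). F3, tissue factor, the starter of coagulation, fell, at 194, 179 and 215 CPM at 12 h and 158, 157 and 159.9 CPM at 24 h (log2 fold change -0.31 ± 0.053 (SE), adjusted p = 0.00327). Without 12 h replicate 3, the log2 fold change of F3 was -0.24. The number of members that rose was 2 without 12 h replicate 1 or 24 h replicate 3 and 1 without 24 h replicate 2, and 2 members fell without 12 h replicate 2.

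For all 25 tested cholesterol synthesis genes the estimate was lower at 24 h, with a median of -0.11, but 3 passed: Pmvk, phosphomevalonate kinase (log2 fold change -0.21 ± 0.042 (SE), adjusted p = 0.0101), Lss, lanosterol synthase (log2 fold change -0.22 ± 0.05 (SE), adjusted p = 0.0184), and Acat2, which makes acetoacetyl-CoA (log2 fold change -0.18 ± 0.044 (SE), adjusted p = 0.0216). The number that fell was 0 without 12 h replicate 1, 24 h replicate 1 or 24 h replicate 2. The list stood at 0.23 at 12 h against 0 h and 0.12 at 24 h against 0 h. Of 17 fatty acid synthesis genes 1 fell, Me1, malic enzyme, which supplies NADPH (log2 fold change -0.25 ± 0.047 (SE), adjusted p = 0.00473), and 2 fell without 12 h replicate 2 or 12 h replicate 3. Of 22 NRF2 target genes 3 fell and 0 rose: the pentose phosphate enzymes G6pdx (log2 fold change -0.20 ± 0.036 (SE), adjusted p = 0.00422), with 13.6% of its exonic bases overlapped on the opposite strand, and Pgd (log2 fold change -0.19 ± 0.036 (SE), adjusted p = 0.00724), and the peroxiredoxin Prdx1 (log2 fold change -0.15 ± 0.035 (SE), adjusted p = 0.0194). The count for NRF2 targets was 5 without 12 h replicate 3 and 1 without 24 h replicate 2 or 24 h replicate 3. Shares past the adjusted p were 12% for cholesterol synthesis, 5.88% for fatty acid synthesis and 13.6% for NRF2 targets. The share of metallothionein and zinc transporter genes was 10%, and that of all genes 5.03%, which fatty acid synthesis genes were near. Of 10 metallothionein and zinc transporter genes 1 fell, Mt1, which binds zinc, at 730.5, 647 and 725 CPM at 12 h and 604, 547 and 528 CPM at 24 h (log2 fold change -0.32 ± 0.065 (SE), adjusted p = 0.0087), and 0 fell without 12 h replicate 1, 24 h replicate 2 or 24 h replicate 3.

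Shares past the adjusted p were 10.8% for proteasome subunit, 13% for heat shock chaperone and 11.1% for endoplasmic reticulum chaperone genes. Ribosome biogenesis genes, at 6.38%, were near the 5.03% of all genes, and ATF4 targets, at 3.23%, were below it. Of 47 ribosome biogenesis genes 3 fell (median -0.086), Nop16 (-0.20), Utp4 (-0.14) and Rrp9 (-0.16), all of ribosome assembly. Of 37 proteasome subunit genes 4 fell (median -0.072), Psma5 (-0.17), Psma2 (-0.16), Psmb4 (-0.13) and Psmd2 (-0.13). Each of these counts was 8 without 12 h replicate 3, 1 without 12 h replicate 2 and 0 without 12 h replicate 1 or any 1 of the 24 h libraries. Of 23 heat shock chaperone genes 3 fell (median -0.066), Hsp90aa1 (-0.15), its co-chaperone Stip1 (-0.17) and Dnajb1 (-0.17), with 5 falling without 12 h replicate 3, 0 without 12 h replicate 1 or 24 h replicate 1 and 1 without 24 h replicate 2 or 24 h replicate 3. Of 27 endoplasmic reticulum chaperone genes 2 fell, Hsp90b1 (-0.17) and Manf (-0.18), and 1 rose, Ern1, the stress sensor IRE1 (0.15). Neither chaperone passed without 12 h replicate 1 or any 1 of the 24 h libraries, and Ern1 passed in only 1 fit that left out a 12 h or 24 h library, that without 12 h replicate 3. Of 31 ATF4 targets, genes of the amino acid stress response, 1 rose, Atf5, at 160.3, 167 and 182 CPM at 12 h and 199, 199.8 and 190.0 CPM at 24 h (log2 fold change 0.21 ± 0.046 (SE), adjusted p = 0.0159). That count was 4 without 12 h replicate 3 and 0 without 12 h replicate 1, 24 h replicate 1 or 24 h replicate 2.

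Of 80 genes listed by ribosomal protein-type symbols, 1 rose, Rps29 (0.18), and 1 fell, Rpl7l1 (-0.14). Rpl7l1 is a ribosomal protein-like gene that the symbol search took in. Of 78 nuclear respiratory chain genes 1 fell, Ndufv3 (-0.18). These shares were 2.5% and 1.28%, below the 5.03% of all genes. Of 13 mitochondrially encoded genes 1 rose (7.69%), mt-Nd1, at 1092, 1199 and 1159 CPM at 12 h and 1226, 1374 and 1314 CPM at 24 h (log2 fold change 0.18 ± 0.044 (SE), adjusted p = 0.0255). None of these 4 genes passed without 12 h replicate 1, 24 h replicate 2 or 24 h replicate 3, and without 12 h replicate 3, 8 respiratory chain genes fell and 1 rose.

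Among the other regulators, 2 of 19 clock genes fell: Bhlhe40, a repressor of the clock that HIF also induces, at 329, 315 and 319 CPM at 12 h and 249.9, 261 and 254 CPM at 24 h (log2 fold change -0.33 ± 0.042 (SE), adjusted p = 0.000264), and Ciart, another clock repressor (log2 fold change -0.23 ± 0.057 (SE), adjusted p = 0.0267), which missed the threshold without 12 h replicate 1, 24 h replicate 1 or 24 h replicate 3. Of 23 tested genes in a list of FOXO factors and genes that PI3K signaling represses, 2 rose and 0 fell. Those that rose were Klf15, a metabolic transcription factor, at 58.1, 61.1 and 54.2 CPM at 12 h and 68.9, 67.8 and 71.8 CPM at 24 h (log2 fold change 0.27 ± 0.05 (SE), adjusted p = 0.00539), and Irs2, an adaptor of the insulin receptor, at 36.6, 37.1 and 40.9 CPM at 12 h and 48.3, 48.2 and 44.5 CPM at 24 h (log2 fold change 0.30 ± 0.059 (SE), adjusted p = 0.00741). Irs2 missed the threshold without 12 h replicate 1 (adjusted p 0.0521). Of 15 prostate luminal genes, Steap2, a metalloreductase, rose (log2 fold change 0.20 ± 0.039 (SE), adjusted p = 0.00781) and Hoxb13, the prostate homeobox factor, fell (log2 fold change -0.18 ± 0.042 (SE), adjusted p = 0.0227), neither passing without 12 h replicate 1. Hoxb13 also missed without 24 h replicate 1 or 24 h replicate 3. Shares past the adjusted p were 10.5% for clock, 8.7% for FOXO and PI3K-repressed and 13.3% for luminal genes, against 5.03% of all genes. Of 32 lysosome genes 1 rose, Gpnmb, a share of 3.12% that was below that of all genes. Of 11 Notch, Wnt and hedgehog target genes 0 passed the adjusted p in edgeR, DESeq2 or limma-voom and 3 had an unadjusted p under 0.05 in edgeR, with a median of 0.11 that was 0.24 without 12 h replicate 3. An unadjusted p under 0.05 in edgeR was found for 2290 of all 11373 tested genes.

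**Figure D5:**
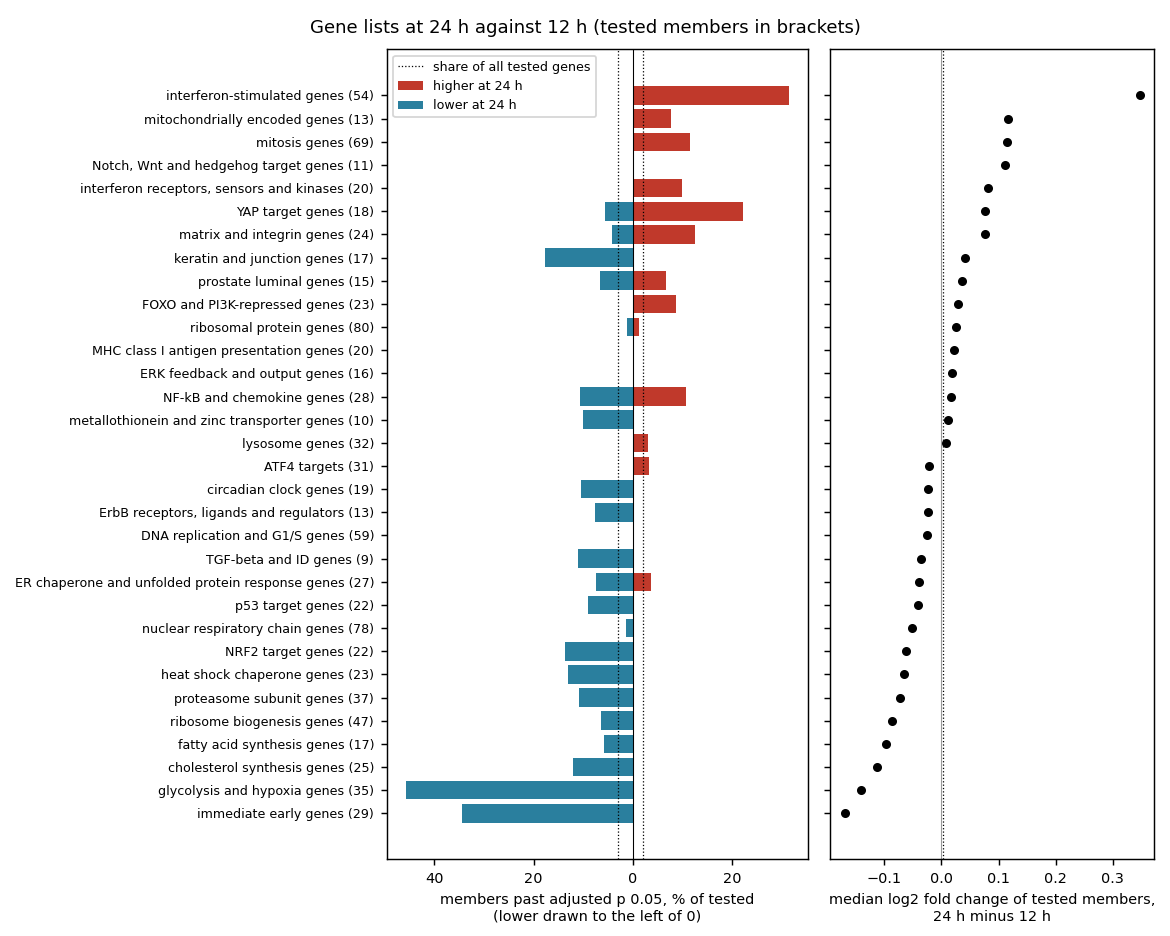
Left, share of tested members of each of 32 gene lists that passed the adjusted p, higher at 24 h to the right of 0 and lower to the left, with dotted lines at the shares of all tested genes (1.97% higher, 3.06% lower). Right, median log2 fold change of the tested members. Interferon-stimulated genes have the highest median, 0.35, and immediate early genes (-0.17) and glycolysis and hypoxia genes (-0.14) the lowest.

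Among the 10 most abundant genes that passed, apart from those above, Tpt1, a growth-associated calcium-binding protein whose mRNA is under translational control by mTOR, was at 3876, 3767 and 3763 CPM at 12 h and 4259, 4251 and 4198 CPM at 24 h (log2 fold change 0.16 ± 0.041 (SE), adjusted p = 0.0358). Lgals1, galectin-1, was at 937, 950.1 and 904 CPM at 12 h and 1005, 999 and 1060.1 CPM at 24 h (log2 fold change 0.13 ± 0.036 (SE), adjusted p = 0.0374). The libraries of the 2 times did not overlap for either gene, and each change was under 1.25-fold. Tpt1 missed the adjusted p without any 1 of the 6 libraries, and Lgals1 without any 1 other than 12 h replicate 2.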

How the data were processed

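RNA of MyC-CaP cells was sequenced as poly(A)-selected, paired-end 150 bp libraries, 3 at each of 0, 12 and 24 h. The authors trimmed the reads, aligned them with STAR to the mouse genome GRCm38.p6 with the GENCODE vM24 annotation and deposited raw gene counts made with featureCounts. Strandedness and the handling of multimapping reads are not given in the sources used here. The deposited counts of 15552 genes were used as they stand, with samples assigned by their labelled time.

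Genes were filtered by filterByExpr, scaled by TMM and fitted with edgeR's quasi-likelihood model (edgeR 4.0.16, R 4.3.3) over all 9 libraries, with the contrast 24 h minus 12 h. A call required a Benjamini-Hochberg adjusted p of at most 0.05 and a fold change of at least 1.5. CPM values use TMM library sizes, and a floor of 3 counts equals 0.0764 to 0.0982 CPM. With 3 libraries against 3, an exact permutation test of a single gene cannot go below p = 0.1, so none was used. Scripts were tested on simulated data. Alternatives were other scalings and filters, DESeq2 1.42.0, limma-voom (limma 3.58.1), edgeR's test against a 1.5-fold change, the replicate number as a block, the 12 h and 24 h libraries alone, and each library left out.

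Genes were named by rule: every called gene other than predicted or clone names, up to 4 members of each list by p among those past the adjusted p, the 15 smallest p-values, the 10 most abundant genes past the adjusted p, and Egfr, Erbb2, Erbb3 and Myc. Some genes that this rule names are not reported here. The comparison and the 32 gene lists were chosen with earlier results of these data known. Start and end of 11292 of the 11373 tested genes were identical in the GENCODE M21 annotation used for exon overlaps. Promoter windows are from RefSeq on GRCm38.p6.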

Additional observations from a re-analysis of the deposited data

How the results depend on the processing

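The direction of all 33 calls was kept in every alternative in which the gene was tested. Called genes numbered 33 with RLE size factors, 32 with total counts, 32 with upper quartile scaling, 26 with at least 1 CPM in 3 libraries, 34 in DESeq2, 31 in limma-voom and 33 with the 12 h and 24 h libraries alone. Without a filter, 53 genes were called (37 higher and 16 lower) and 950 passed the adjusted p, which for Atf3 was then 1.17e-27 against 0.0358 with the filter; the cause was not tested. In edgeR's test against a 1.5-fold change, 0 genes passed (0 higher and 0 lower), with 46 at an unadjusted p under 0.05. Leaving out 1 library gave 16 to 36 calls, 11 to 26 higher and 5 to 18 lower, and 214 to 879 genes past the adjusted p. The lowest number of calls was without 24 h replicate 1 (16, with 217 past the adjusted p). It was 22 without 24 h replicate 2 (220) and 25 without 12 h replicate 1 (214), and 30 without 24 h replicate 3 (263), 35 without 12 h replicate 2 (461) and 36 without 12 h replicate 3 (879). Of 76 genes named for the adjusted p alone, 26 passed it without each of the 12 h and 24 h libraries.

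The replicate numbers were not taken to pair the samples, since deviations from the group means of same-numbered libraries at 12 h and 24 h had correlations of 0.131, -0.0254 and 0.0164 across genes. With the replicate number as a block, 33 genes were called (22 higher and 11 lower), 32 of them among the calls without it, and 609 passed the adjusted p.

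Of 2122 fits of named genes under alternatives, 1692 stayed on the same side of the threshold, 418 no longer passed, 12 newly passed and 0 reversed. Genes near 1 CPM rest on few counts, and a difference in them that was not called may be below what this depth can show.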
